A study of Caenorhabditis elegans with 55 samples.

Results

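The piRNAs described here are 2875 of the 12872 piRNA genes in small RNA tables of 10 strains of Caenorhabditis elegans. They were chosen because each had at least 1 RPM (reads per 1000000 reads of the library) in both input libraries of at least 2 strains, after the 0.01 that the tables add to every value was taken off. The other 9997 piRNA genes did not meet that rule, and 599 of them met it in 1 strain. Input levels therefore chose the members and are given as a description, with no test. A ratio of immunoprecipitate (IP) to input uses those same inputs as its denominator. Counts of lower members and the range of share ratios are therefore also given for members chosen from the other 9 strains. Counts of differences between strains were not made that way. Of the members, 297 passed in all 10 strains and 477 in exactly 2.

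piRNAs of C. elegans are short RNAs of the germline that begin with uridine and bind the PIWI Argonaute PRG-1. Most come from very small genes, each with its own upstream motif, packed into clusters. Through partial pairing, PRG-1 and its piRNAs mark foreign and some endogenous transcripts, and RNA-dependent RNA polymerases then copy those transcripts into antisense small RNAs carried by worm-specific Argonautes (WAGOs). PRG-1 was not among the proteins pulled down in these libraries. CSR-1 carries antisense small RNAs against most genes expressed in the germline and is made as a long isoform, CSR-1a, and a short one, CSR-1b. ALG-3 and ALG-4 act in sperm development, and WAGO-4 and WAGO-10 are worm-specific Argonautes of the germline.

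Each strain had 2 IP and 2 input libraries from whole L4 larvae kept at 20 C, with the inputs taken from the lysates used for the IPs. All strains derive from N2 (wild type) and were fed OP50 bacteria. JMC101, csr-1(tor67[gfp::3xflag::csr-1]), carries a tag on CSR-1. JMC161 carries the CSR-1a transgene mgTi11[rpl-28::csr-1a exon1::gfp], with the ribosomal protein gene rpl-28 written ahead of it, in worms with the deletion allele csr-1(tm892) and unc-119(ed3). JMC151 carries the csr-1 allele tor160, written as [csr-1 exon1::gfp::3xflag], with a tag for CSR-1a. GR3035, mgIs75[rpn-2::gfp]; mgTi14[pbs-5::mcherry], carries reporters of proteasome genes, and its IP is labelled CSR-1a. GR3039 carries csr-1(mg657[G91R]), an amino acid change in CSR-1a. JMC164 carries the csr-1 allele tor67, written as [csr-1 exon2::gfp::3xflag], together with csr-1(mg660[G120*]), a stop codon that ends CSR-1a, and was used for CSR-1b. JMC205 carries alg-3(tor141[gfp::3xflag::alg-3]), JMC207 alg-4(tor143[gfp::3xflag::alg-4]), JMC248 wago-10(tor162[3xflag::wago-10]) and JMC223 wago-4(tor117[gfp::3xflag::wago-4]). GFP beads are given for the IPs of JMC248, GR3035 and GR3039, whose genotypes place no GFP on the Argonaute. The shared protocol names an antibody against CSR-1a beside one against GFP, and which one each of these 3 strains' IPs used is not clear from the labels. JMC161 is called CSR-1 in its title and CSR-1a in its table. Poly(A) RNA of csr-1a mutant JMC164 and of N2 was sequenced at 20 and 25 C, with 3 libraries per group; the titles of the mutant libraries name another allele, csr-1a(tor159), and the genotype field mg660. The labels do not say whether libraries of a group came from separate cultures, so p-values measure only the spread between these libraries. In whole worms, fewer germline cells and less piRNA per cell cannot be told apart.

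Depth differed widely between libraries. The size of a library, estimated from the RPM worth of 1 read, was 1546970 to 29179000 reads in IPs (median 7992080) and 325376 to 30284500 reads in inputs (median 6050670). Reads on members numbered 2948 to 132117 in IPs and 2320 to 469403 in inputs. The shallowest library was input 2 of JMC223, in which 1 read was worth 3.07 RPM and 1176 members had a read. The 4 libraries of JMC151 held 1302211 to 1562177 reads, and 905 to 1846 members had a read in them. The 10 members with the most reads took 4.34% to 13.2% of member reads in an IP and 5.26% to 8.49% in an input, so the sums below do not rest on a few genes.

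The members covered a wide range of abundance in inputs. The mean input level over strains had a median of 2.03 RPM, a lowest value of 0.33 RPM and a highest of 98.6 RPM. A mean above 10 RPM was seen for 204 members and a mean above 30 RPM for 17, while 470 members averaged below 1 RPM. Just inside the limit stood 21ur-147 and 21ur-2138, whose inputs in JMC164 were 1.00 and 1.77 RPM, and 1.00 and 2.48 RPM. Just outside were 21ur-6892 and 21ur-7704, each with 0.991 RPM as the second highest over strains of the smaller input value. The number of members at 1 RPM or more in both inputs of a strain was lowest in JMC151, at 476, and highest in JMC164, at 2500.

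piRNAs took a smaller share of IP reads than of input reads in both IP libraries of 9 of the 10 strains, and the gap was widest in JMC101, JMC161 and JMC164. Members held 0.157% and 0.135% of reads in the JMC101 (CSR-1) IPs, against 1.96% and 1.29% in its inputs, an input mean 11.1 times the IP mean. In JMC161 (CSR-1a transgene) they held 0.355% and 0.129% of IP reads, against 1.81% and 1.81% of input reads, or 7.47 times. In JMC164 (CSR-1b) the shares were 0.436% and 0.141% in IPs and 2.17% and 1.41% in inputs, or 6.21 times. JMC223 (WAGO-4) had 0.0738% and 0.423% in IPs and 1.01% and 0.713% in inputs, or 3.46 times, with its IP libraries far apart. The input over IP ratio was above 3 in these 4 strains and no more than 2.10 in the other 6, but 1 IP library decides on which side JMC223 falls: its ratio was 2.03 without IP 1 and 11.7 without IP 2. In JMC164 the ratio was 12.7 without IP 1 and 4.11 without IP 2, and in JMC161 14.02 without IP 1.

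The remaining strains had smaller gaps. In JMC207 (ALG-4) members held 0.350% and 0.520% of IP reads, against 0.908% and 0.921% of input reads. In JMC205 (ALG-3) they held 0.401% and 0.376% of IP reads, against 0.732% and 0.742% of input reads, and in JMC248 (WAGO-10) 0.444% and 0.309%, against 0.707% and 0.728%. The input mean was 2.10 times the IP mean in JMC207, 1.90 times in JMC205 and 1.91 times in JMC248. JMC151 (CSR-1a) had 0.204% and 0.222% in IPs and 0.275% and 0.362% in inputs, 1.50 times. GR3039 (G91R) had 0.841% and 0.595% in IPs, against 1.15% and 0.936% in inputs, 1.45 times. GR3035 was the exception to the separation, with 0.438% and 0.684% in IPs and 1.03% and 0.600% in inputs, so that IP and input overlapped. With 2 libraries against 2, an exact two-sided permutation test cannot give a p below 0.333. When the members were chosen from the inputs of the other 9 strains, the input over IP ratio ran from 1.45 in GR3039 to 11.0 in JMC101.

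Measured as a difference, the gap moved by over 1.5 times with 1 library in 3 strains. In GR3035 the IP minus input difference was -0.256 percentage points with all libraries, -0.133 without IP 1, -0.0388 without input 1 and -0.474 without input 2. It was -0.106 points in JMC151 and -0.0621 without input 2, and -0.323 points in GR3039 and -0.200 without IP 2.

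**Figure D1:**
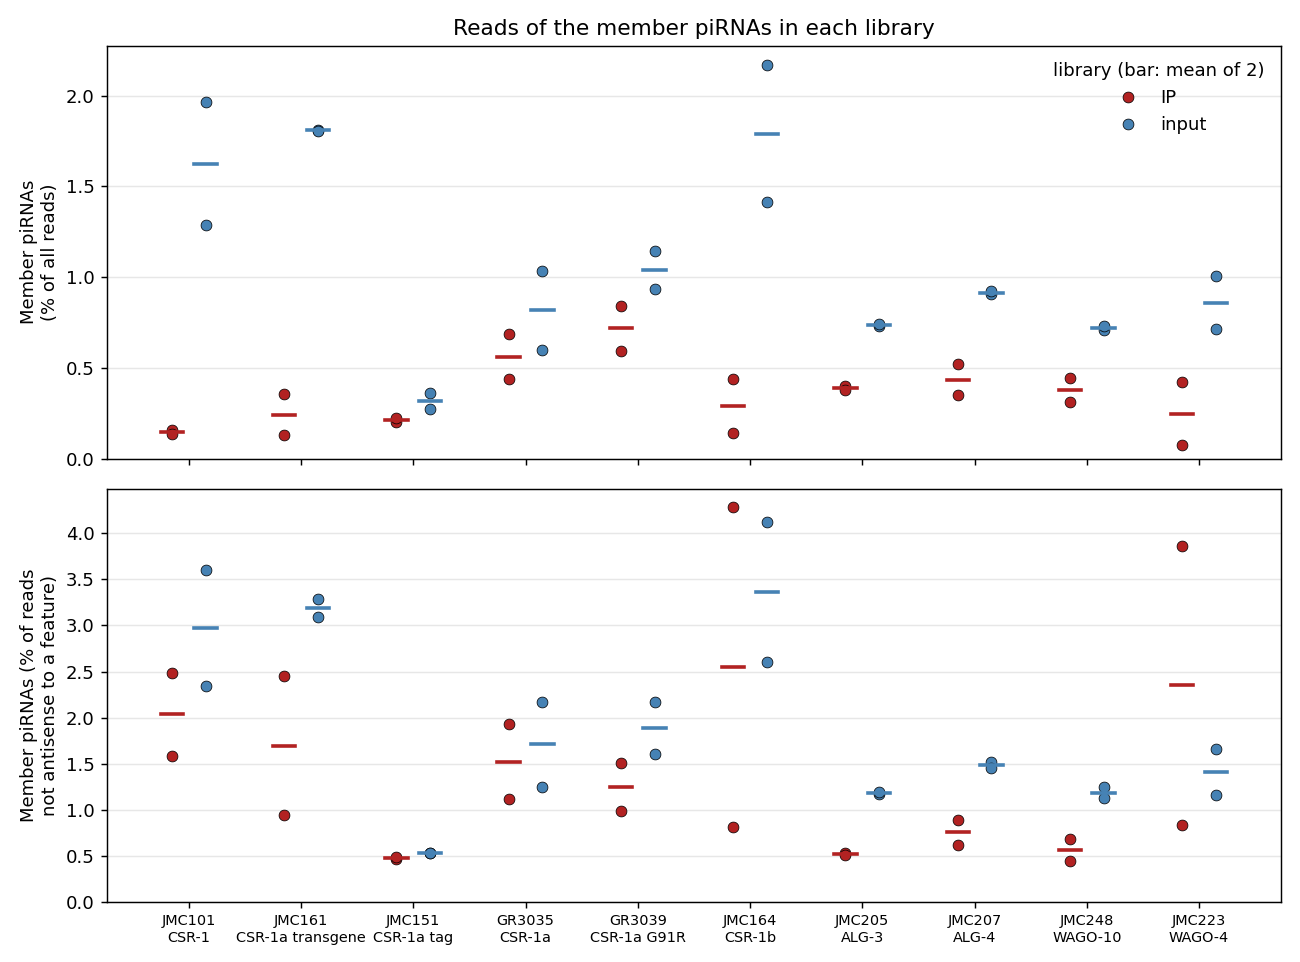
Share of each library's reads held by the 2875 member piRNAs, as a percent of all reads (top) and of reads not assigned antisense to an annotated feature (bottom); points are libraries, bars the mean of 2, with the IP left of the input for each strain. In the top panel the JMC101 IPs lie at 0.157% and 0.135%, under inputs at 1.96% and 1.29%, while in the bottom panel IP and input overlap in JMC101, JMC164, JMC223 and GR3035.

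Reads antisense to annotated features were a larger share of IPs than of inputs in JMC101, JMC161, JMC164, JMC223, JMC207, JMC151 and GR3035. They were a smaller share of IPs in JMC205 and JMC248, and IP and input overlapped in GR3039. Antisense reads made up 93.7% and 91.5% of reads in the JMC101 IPs, against 45.4% and 44.9% in its inputs. In the JMC223 IPs they made up 91.2% and 89.1%, against 39.2% and 38.6% in its inputs. Among the reads left when antisense features were set aside, members held 2.49% and 1.59% in the JMC101 IPs and 3.60% and 2.34% in its inputs, which overlap. In JMC164 they held 4.29% and 0.813% in IPs and 4.13% and 2.61% in inputs, which also overlap. In JMC223 they held 0.837% and 3.86% in IPs, against 1.66% and 1.16% in inputs, so the IP mean was the higher one on this scale. The part of the antisense reads in the lower piRNA shares of these strains was not tested.

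The gap outside antisense reads was still present, with no overlap, in 6 strains. Members held 2.45% and 0.939% of these reads in JMC161 IPs, against 3.10% and 3.28% in inputs. They held 0.535% and 0.503% in JMC205 IPs, against 1.17% and 1.19% in inputs, and 0.617% and 0.893% in JMC207 IPs, against 1.52% and 1.45% in inputs. JMC248 had 0.685% and 0.447% in IPs and 1.12% and 1.24% in inputs, GR3039 had 1.51% and 0.990% in IPs and 2.17% and 1.60% in inputs, and JMC151 had 0.459% and 0.487% in IPs and 0.529% and 0.530% in inputs. GR3035 overlapped on this scale too, at 1.12% and 1.93% in IPs and 2.17% and 1.25% in inputs.

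Set against miRNAs, another class of small RNA made without antisense copying, the order of the strains was different. For every 100 miRNA reads there were 0.721 and 0.689 member reads in the JMC205 IPs, against 2.35 and 2.44 in its inputs, and 0.865 and 1.31 in the JMC207 IPs, against 2.98 and 3.34 in its inputs. In JMC223 there were 9.40 and 24.6 member reads in IPs, against 3.37 and 3.39 in inputs. In JMC151 there were 2.05 and 1.69 in IPs, against 1.63 and 1.15 in inputs. In JMC248 there were 0.995 and 0.664 in IPs, against 1.75 and 2.002 in inputs, and in GR3039 2.70 and 1.88 in IPs, against 3.99 and 2.95 in inputs. On this scale piRNAs were lower in both IPs than in both inputs of JMC205, JMC207, JMC248 and GR3039, higher in both IPs of JMC223 and JMC151, and overlapped in the other 4 strains. The summed classes show the same pattern. On the log2 scale of mean IP share over mean input share, members stood at -0.92 in JMC205, -1.07 in JMC207 and -0.93 in JMC248, where miRNAs stood at 0.84, 0.47 and 0.25. In JMC101 members stood at -3.48 and miRNAs at -3.70, in JMC161 at -2.90 and -2.93, and in JMC223 at -1.79 and -4.34. In the other 4 strains the values were -2.63 for members and -2.10 for miRNAs in JMC164, -0.58 and -1.07 in JMC151, -0.54 and -0.39 in GR3035, and -0.54 and 0.06 in GR3039. The 3 strains whose genotypes place no GFP on the Argonaute stood apart in another class: small nucleolar RNAs, which guide modification of ribosomal RNA, were at 3.79 in GR3035, 4.34 in GR3039 and 4.95 in JMC248 on this scale, and below 0 in the other 7 strains. Their part in the piRNA values of those strains was not tested.

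**Figure D2:**
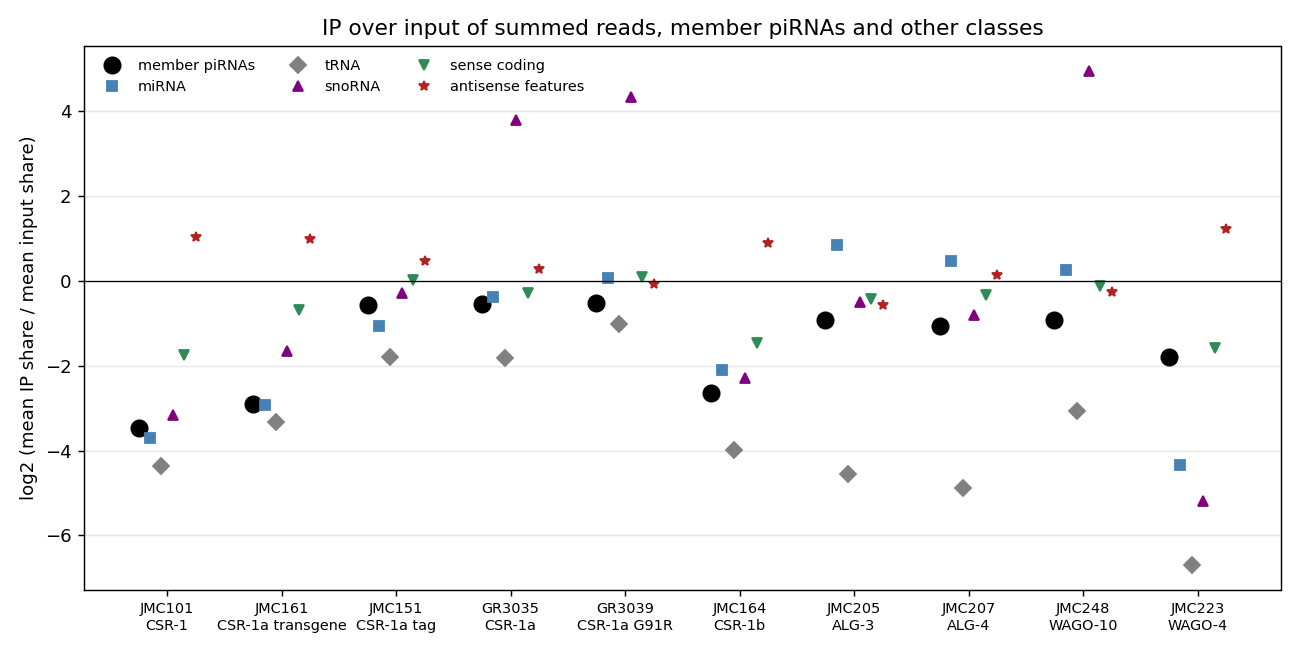
Log2 ratio of the mean IP share to the mean input share for the summed reads of member piRNAs and of 5 other classes in each strain, with 0 meaning equal shares. Member piRNAs lie below 0 in all 10 strains, from -3.48 in JMC101 to -0.54 in GR3035 and GR3039, while miRNAs lie above 0 in JMC205, JMC207, JMC248 and GR3039.

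Single piRNAs were tested within each strain with limma on log2(RPM + 1), over all features with at least 10 estimated reads in at least 2 of the 4 libraries. A member was called lower or higher in the IP at a Benjamini-Hochberg adjusted p under 0.05 over all features tested and a change of at least 1 on the log2 scale, which understates changes at low levels. The members tested are those deep enough for the filter. Between 4 of them in JMC223 and 903 in JMC161 had no IP library at 10 reads. Others had no input library at 10 reads: 43 in JMC207, 6 in JMC151, 4 in JMC101, 3 in JMC248 and 1 in JMC223. Counts of lower and of higher members therefore describe and do not support a direction. In JMC101, 1522 members were tested, of which 1347 were lower, where 32.2% of all features tested were lower and 36.1% higher. No member was higher there, and none was higher at an unadjusted p under 0.05 or by edgeR. In JMC161, 1798 of 1883 members tested were lower, against 26.3% of all features lower and 34.8% higher, and in JMC164, 1638 of 2435, against 27.3% lower and 27.9% higher. In both of these strains 0 members were higher, also at an unadjusted p under 0.05 and by edgeR. In JMC223, 29 of 214 members (13.6%) were lower, near the 11.2% of all features lower, where 54.8% of all features were higher. There 0 members were higher, also at an unadjusted p under 0.05 and by edgeR. With IP and input paired by replicate number, 54 were lower.

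In the other 6 strains members were called in both directions, with more lower than higher in each. Of the members tested, 38.9% were lower in JMC207, 30.7% in JMC205, 44.5% in JMC248, 26.3% in GR3039, 16.6% in GR3035 and 19.2% in JMC151. In JMC205, GR3035 and JMC151 these are near the 28.8%, 13.3% and 20.2% of all features that were lower. JMC207 had 769 of 1976 members lower and 16 higher, against 32% of all features lower and 26.1% higher. JMC205 had 645 of 2102 lower and 20 higher, against 28.8% and 22%. JMC248 had 463 of 1040 lower and 31 higher, against 14.8% and 9.73%. GR3039 had 375 of 1425 lower and 17 higher, against 9.72% and 12.1%. GR3035 had 369 of 2223 lower and 50 higher, against 13.3% and 20.9%. JMC151 had 10 of 52 lower and 4 higher, against 20.2% and 32.5%. Members chosen from the other 9 strains gave 1293 lower in JMC101, 1743 in JMC161, 1532 in JMC164, 759 in JMC207, 642 in JMC205, 462 in JMC248, 374 in GR3039, 367 in GR3035, 29 in JMC223 and 10 in JMC151. The median log2 change of the tested members lay between -2.07 in JMC101 and -0.24 in JMC151. It was below the median of all features tested in each of the 10 strains, as it was with TMM scaling and with totals that leave out antisense features. The inputs that chose the members, and the filter that many passed through inputs alone, favour a low median, so this is a description; with members chosen from the other 9 strains it lay between -2.09 in JMC101 and -0.24 in JMC151. With those totals the member median turned to 1.06 in JMC223, where the median of all features was 4.98, and to 0.13 in JMC151, where that of all features was 0.97. In JMC223 the counts then became 4 lower and 46 higher, and in JMC101 309 lower and 15 higher.

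Leaving out 1 library moved the count of lower members by over 1.5 times in each strain, mostly with fewer members tested. In JMC101 723 of 859 members tested were lower without input 1 (84.2%, against 88.5% with all libraries). In JMC161 the count was 790 of 942 (83.9%) without input 1 and 776 of 980 (79.2%) without input 2, against 95.5%. In JMC164 it was 768 of 1111 (69.1%) without input 1, against 67.3%, and 1090 of 2435 (44.8%) without IP 2. Without input 1, the share of tested members called lower thus moved less than the count in JMC101 and JMC164. In JMC205 the count was 276 of 1444 without input 1 and 294 of 1312 without input 2, and in JMC207 409 of 1497 and 405 of 1430. In JMC248 it was 40 of 362 without input 1 and 45 of 334 without input 2, and in GR3039 33 of 698 and 60 of 713, with 563 of 1395 without IP 1 of GR3039. GR3035 had 163 of 1649 without input 1, and JMC223 had 18 of 213 without IP 1 and 14 of 50 without input 1. In JMC151 the lower count was 2 to 4, of 35 to 41 tested, without any 1 library. The higher count moved as well. In GR3035 it was 97 without IP 1, 128 without input 1 and 31 without input 2, and in JMC248 57 without IP 2, 12 without input 1 and 19 without input 2. In GR3039 it was 69 without IP 2 and 7 without input 2, in JMC223 7 without input 1, and in JMC151 0 without either IP.

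**Figure D3:**
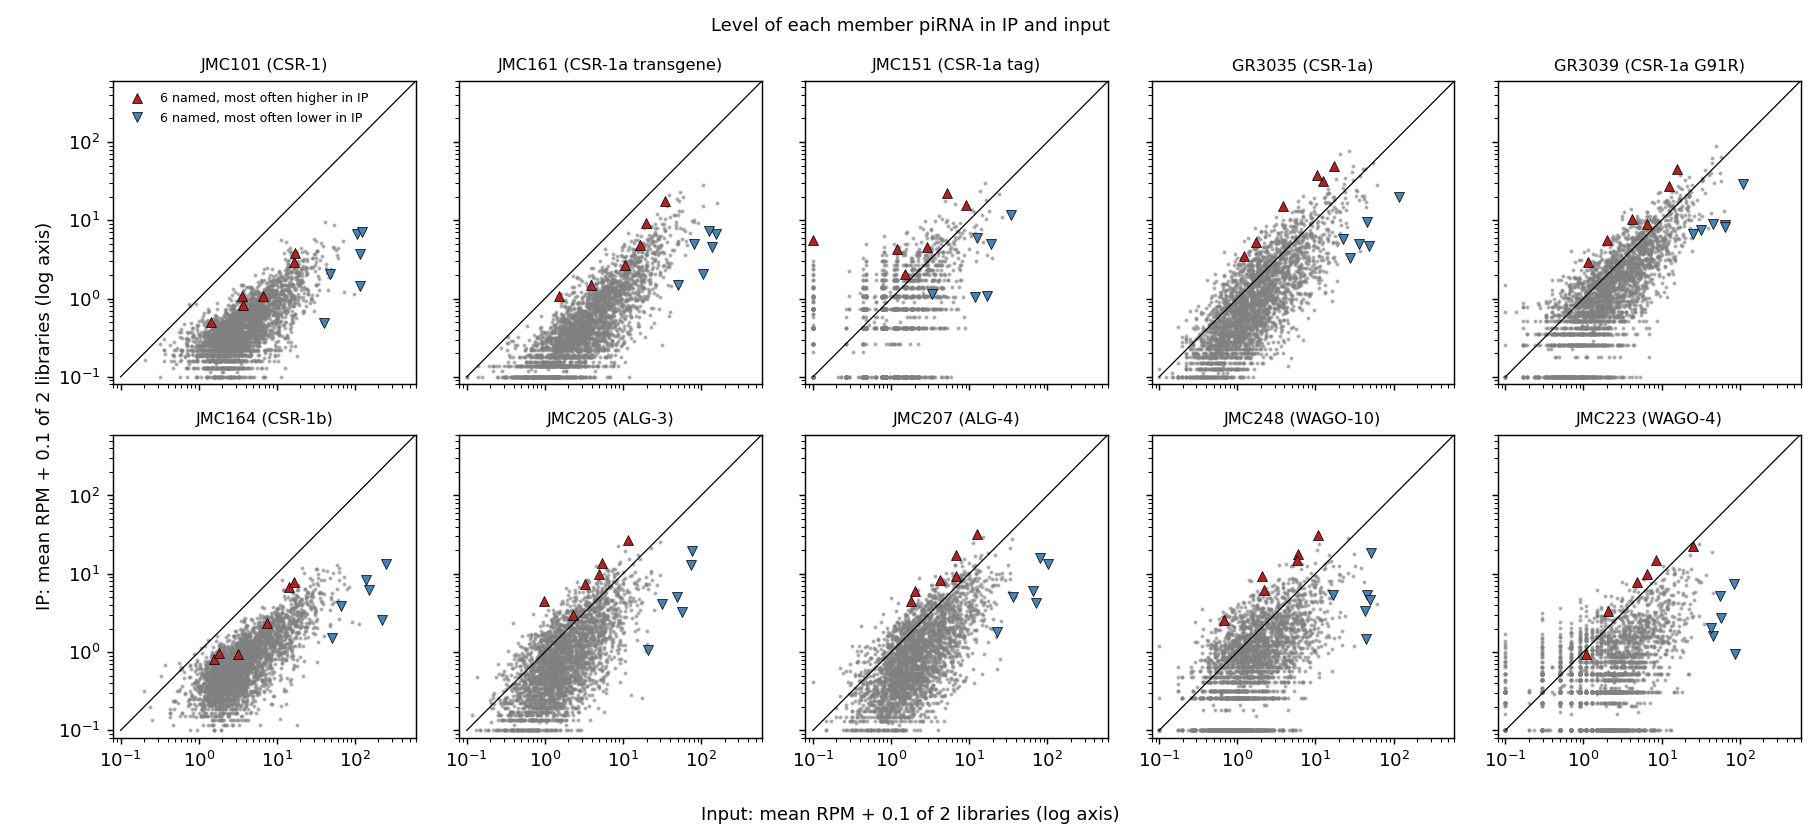
Mean IP level against mean input level of each member piRNA in the 10 strains, both in RPM + 0.1 on log axes, with the line of equality; red upward triangles are the 6 members most often called higher in an IP and blue downward triangles the 6 most often called lower. The cloud lies furthest below the line in JMC101, JMC161 and JMC164. All 6 red triangles lie above the line in JMC151, GR3035, GR3039, JMC205, JMC207 and JMC248. Those are the strains with members called higher, and the triangles were picked by their calls, which favours that place.

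Choosing the 8 piRNAs with the highest mean input favours a low IP over input ratio, since the input is its denominator. Picking the 6 most often lower by their calls favours a low ratio as well. 21ur-74 had the highest mean input level, 98.6 RPM. Its IP levels were 11.1 and 3.04 RPM in JMC101, 10.5 and 4.07 RPM in JMC161 and 22.1 and 4.28 RPM in JMC164, against inputs of 171 and 74.9 RPM, 161 and 88.9 RPM, and 433 and 63.9 RPM. In JMC205, JMC207 and JMC248 its IPs held 21.4 and 17.7, 14.2 and 17.0, and 18.0 and 18.6 RPM, against inputs of 81.9 and 71.6, 83.9 and 74.8, and 39.2 and 62.4 RPM. Every IP library was below every input of its strain in these 6 strains. In JMC223, GR3035, GR3039 and JMC151 the IPs held 5.50 and 8.95, 18.4 and 21.1, 8.56 and 9.25, and 14.9 and 8.32 RPM, against inputs of 81.8 and 89.1, 166 and 68.6, 48.5 and 42.8, and 33.0 and 35.4 RPM. IP levels of 21ur-74 thus stayed within 3.04 to 22.1 RPM in all 20 IPs while its inputs spanned 33.0 to 433 RPM. It was lower in all 10 strains by limma, from -4.03 ± 0.60 on the log2 scale (SE) in JMC101 (adjusted p = 0.0013) to -1.39 ± 0.26 in JMC248 (adjusted p = 0.0040). The call in JMC151 was lost without IP 1 (adjusted p = 0.12) and without IP 2 (adjusted p = 0.39) by limma, with no filter on low values, and with totals that leave out antisense features.

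21ur-5554 had the lowest single log2 change among the 8 members of highest input, in JMC164. In JMC161 the change was lower for 21ur-5107 and 21ur-1793, and in GR3039 for 21ur-5107. 21ur-5554 had 2.58 and 0.127 RPM in the JMC101 IPs, against 115 and 115 RPM in inputs. In the JMC164 IPs it had 4.28 and 0.584 RPM, against 359 and 90.1 RPM in inputs. In JMC223 it had 0 and 1.70 RPM in IPs and 101 and 70.7 RPM in inputs. Its smallest change was in GR3039, with 9.19 and 7.19 RPM in IPs, against 67.4 and 62.7 RPM in inputs. By limma it was lower in all 10 strains, with changes from -5.97 ± 0.72 (SE, JMC164, adjusted p = 0.00023) to -2.85 ± 0.23 on the log2 scale (GR3039, adjusted p = 2.7e-06). 21ur-4467 and 21ur-2799 were the other members lower in all 10 strains, where only 42 members were tested in all 10. 21ur-4467 had 4.14 and 3.96 RPM in the JMC205 IPs and 30.9 and 31.8 RPM in inputs, and 21ur-2799 had 1.28 and 0.660 RPM there, against 23.2 and 18.7 RPM in inputs. Leaving out 1 library at a time, 21ur-5554 and 21ur-2799 kept the call in 7 strains and 21ur-4467 in 8. Not every loss was a weaker change. 21ur-5554 in JMC151, JMC248 and JMC223 fell under the read filter without an input and was then not tested. The same held for 21ur-2799 in JMC101 and JMC223 and for 21ur-4467 in JMC223. Also among the 8 most abundant, 21ur-1793 and 21ur-4730 were lower in all 9 strains where they were tested, and 21ur-5107 in 9 of 10.

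2 of the 8 most abundant members were called lower in fewer strains. 21ur-6881 was lower in 7 strains, but in GR3039 it had 27.6 and 28.3 RPM in IPs, against 27.4 and 22.1 RPM in inputs. In JMC205 it had 4.14 and 2.53 RPM in IPs and 22.9 and 27.0 RPM in inputs, with no overlap. 21ur-4599 was lower in 3 strains, JMC101, JMC161 and JMC164, and the call in JMC164 was lost without input 1. With totals that leave out antisense features its change was -0.11 in JMC101, -0.020 in JMC161 and -0.62 in JMC164 on the log2 scale, and all 3 calls were lost. Its IPs held 25.7 and 25.4 RPM in JMC205 and 29.4 and 27.4 RPM in JMC248, against inputs of 28.1 and 30.6 RPM and 20.6 and 31.3 RPM. These values differ by no more than the spread between libraries in JMC248, where IP and input overlap.

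Some members were higher in IPs, by number chiefly in GR3035, JMC248, JMC205, JMC207 and GR3039. Of 95 members called higher in at least 1 strain, 94 were called in at least 1 of these 5. The 5 include the 3 strains where small nucleolar RNAs were high in the IPs. In JMC151, the other strain with such calls, 4 were higher of only 52 tested, so these numbers also depend on how many members could be tested. Of the 95, 68 were higher in 1 strain, 17 in 2, 5 in 3, 4 in 4 and 1 in 5, and 84 were also lower in some other strain. By comparison 2367 members were lower in at least 1 strain and 557 in at least 5. Depth limits these counts: 128 members were tested in no strain and only 42 in all 10. Matching counts over strains for all features are not given here, so these counts describe the members alone. In single strains 9.72% (GR3039) to 32.2% (JMC101) of all features were lower, and 9.73% (JMC248) to 54.8% (JMC223) were higher.

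21ur-66 was higher in the most strains. Its IPs held 25.0 and 50.3 RPM in GR3035, 33.3 and 22.1 RPM in GR3039 and 32.7 and 30.1 RPM in JMC248, against inputs of 11.5 and 9.21, 13.2 and 11.5, and 12.04 and 9.52 RPM. In JMC205 and JMC207 the IPs held 29.8 and 23.5 RPM and 33.0 and 30.4 RPM, against inputs of 12.6 and 10.2 RPM and 13.9 and 11.0 RPM. In JMC101 its IPs held 3.38 and 4.05 RPM, below inputs of 19.2 and 15.1 RPM. By limma it rose by 1.69 ± 0.31 in GR3035 (adjusted p = 0.0036), 1.47 ± 0.24 in JMC248 (0.0022), 1.29 ± 0.20 in JMC207 (0.00093), 1.16 ± 0.14 in JMC205 (8.3e-05) and 1.07 ± 0.26 in GR3039 (0.0072), and fell by 1.94 ± 0.29 in JMC101 (0.0013), all on the log2 scale with SE. Without IP 1 its change was 0.996 in JMC205 and 0.79 in GR3039, and without input 2 it was 0.98 in GR3039, all under the limit of 1. The JMC101 value depends on the scaling: with totals that leave out antisense features it was 0.69.

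Of the other members most often higher, 21ur-1404, 21ur-1147, 21ur-4324 and 21ur-5770 were also lower in at least 1 strain, and 21ur-1667 in none. 21ur-1404 had 45.9 and 52.5 RPM in GR3035 IPs and 52.9 and 36.5 RPM in GR3039 IPs, against inputs of 19.5 and 14.8 RPM and 16.3 and 15.3 RPM. It had 3.61 and 2.03 RPM in JMC101 IPs, against 23.1 and 9.90 RPM in inputs. 21ur-1147 had 15.7 and 14.5 RPM in GR3035 IPs and 9.62 and 8.86 RPM in JMC248 IPs, against inputs of 4.37 and 3.12 RPM and 1.53 and 2.46 RPM. 21ur-5770 rose by 1.22 ± 0.12 on the log2 scale in JMC205 (SE, limma, adjusted p = 2.0e-05), with 14.2 and 13.2 RPM in IPs and 5.64 and 4.99 RPM in inputs. It was lower in JMC161, at 6.63 and 2.89 RPM in IPs, against 16.1 and 17.0 RPM in inputs. 21ur-1667 rose by 1.58 ± 0.24 on the log2 scale in JMC205 (SE, limma, adjusted p = 0.00032), with 4.71 and 4.18 RPM in IPs and 0.425 and 1.32 RPM in inputs. 21ur-4324 was higher in 4 strains, and the call held without any 1 library in GR3035 alone, with 4.93 and 5.49 RPM in IPs and 1.97 and 1.26 RPM in inputs. The fall of 21ur-1404 in JMC101 turned into a change of 0.41 on the log2 scale when totals left out antisense features.

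**Figure D4:**
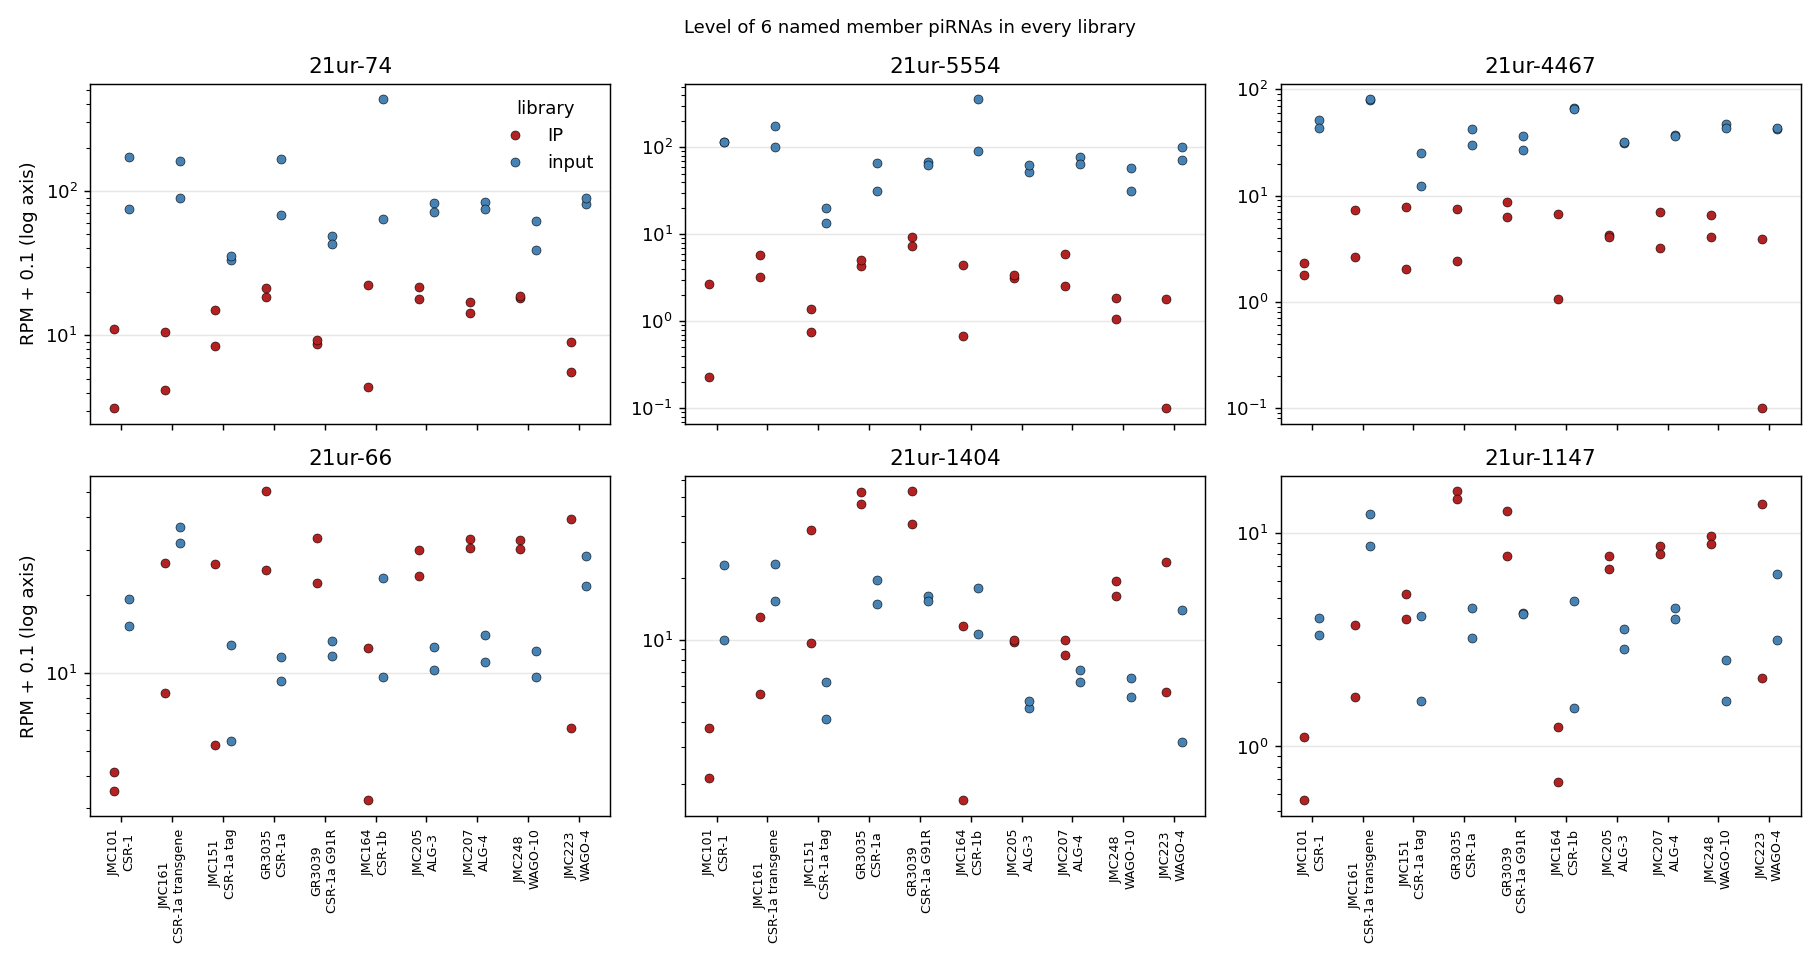
Level of 6 named piRNAs, picked by their calls, in each library, in RPM + 0.1 on a log axis, with the IP left of the input. IP points of 21ur-74, 21ur-5554 and 21ur-4467 lie below the input points in every strain, whereas those of 21ur-66, 21ur-1404 and 21ur-1147 lie above the inputs in GR3035 and JMC248 and below them in JMC101.

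Some of the members called higher were shared between strains. The ALG-3 and ALG-4 strains shared 8, which is 40.0% of the 20 higher in JMC205 and 50.0% of the 16 higher in JMC207. GR3035 and GR3039 shared 11, which is 22.0% of 50 and 64.7% of 17. JMC248 and GR3035 shared 10, which is 32.3% of 31 and 20.0% of 50. Sharing among all features called higher is not given here, so whether it is particular to piRNAs was not tested. Across the 2875 members, Pearson's r of the log2 IP over input ratio between strains ran from 0.331 for JMC151 and JMC223 to 0.899 for JMC205 and JMC207, with a median of 0.519 over 45 pairs of strains. JMC101 and JMC164 gave 0.803. Input levels alone gave r from 0.606 to 0.964, again highest for JMC205 and JMC207. Between the 2 replicates of a strain the ratio gave r from 0.221 in JMC151 to 0.850 in JMC205. These are descriptions across genes that share libraries and depth, and piRNA genes are not independent replicates.

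The depth of depletion was also read against abundance. Members were split into 4 equal groups by their input level in the other 9 strains. The input over IP ratio of their summed reads in JMC101 was 12.7, 11.4, 10.2 and 11.2, lowest group first, and in GR3035 it was 1.49, 1.49, 1.41 and 1.46. In JMC248 it was 1.68, 1.58, 1.67 and 2.10. The ratio thus lay between 10.2 and 12.7 at every level of abundance in JMC101 and between 1.41 and 1.49 in GR3035. The members themselves were still chosen with each strain's own inputs, which can raise the ratio of the lower groups. Without the JMC101 inputs the rule kept 2587 members. Ratios by group in the other strains are not given here.

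Differences between IPs were tested directly for 3 pairs of strains, as an interaction of strain and IP with limma at an adjusted p under 0.05. In JMC151 (CSR-1a) minus JMC164 (CSR-1b), IP over input was higher for 273 of 2114 members and lower for 0, where 8.89% of all features were higher and 13.4% lower. None was lower at an unadjusted p under 0.05 either. The median difference was 1.23 on the log2 scale for members and 0.29 for all features tested. Only 51 of these members were deep enough to be tested in both strains alone, and 12 of the 273 were among them. In JMC164 alone 2435 members were tested and in JMC151 alone 52, so most passed the filter through JMC164, where they were lower in IPs, and this favours a higher difference. The count was 16 without IP 2 of JMC164, 38 without input 1 of JMC164, 149 without IP 2 of JMC151 and 173 without input 2 of JMC164, and 531 with IP and input paired by replicate number. The largest differences were 3.87 ± 0.92 for 21ur-5770 (SE, adjusted p = 0.012) and 3.83 ± 1.18 for 21ur-4807 (SE, adjusted p = 0.036), both on the log2 scale. The call of 21ur-5770 was lost without IP 2 of either strain, and that of 21ur-4807 without 6 of the 8 libraries. 21ur-5770 had 3.23 and 7.68 RPM in JMC151 IPs, against 0 RPM in both inputs, where 1 read is worth 0.768 and 0.668 RPM, so its size depends on the pseudocount.

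In JMC223 (WAGO-4) minus JMC164, 21 of 2402 members were called higher and 0 lower, where 15.6% of all features were higher and 3.43% lower, and none was lower at an unadjusted p under 0.05. Of the members, 213 were deep enough to be tested in both strains alone, and 0 of the 21 were among them. They passed the filter through JMC164, and with values near 0 in JMC223 a fall in JMC164 alone gives a higher difference. 21ur-8495 (difference 3.97 ± 0.59, SE, adjusted p = 0.0022) had 0.0343 and 0 RPM in JMC164 IPs, against 19.1 and 16.7 RPM in inputs, and 0 RPM in both JMC223 IPs, against 0.397 and 0 RPM in inputs. 21ur-3989 (difference 2.98 ± 0.91, SE, adjusted p = 0.0497) lost its call without 6 of the 8 libraries and at a pseudocount of 0.1 RPM (adjusted p = 0.22). Without input 1 of JMC223 the counts were 565 higher and 15 lower, and over the other left-out libraries 1 to 38 were higher; 13 were higher with pairing by replicate number.

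In GR3039 (G91R) minus GR3035, 1 of 2332 members was higher and 0 lower, where 0.287% of all features were higher and 0.962% lower. At an unadjusted p under 0.05, 51 were higher and 56 lower. The counts were 25 higher and 78 lower without IP 1 of GR3039, 2 higher without IP 2 of GR3035, 0 higher without any 1 of the other 6 libraries, and 8 higher and 1 lower with pairing by replicate number. The member that passed was 21ur-1237, with a difference of 2.47 ± 0.44 on the log2 scale (SE, adjusted p = 0.034). Its call was lost without each of the same 6 libraries (adjusted p from 0.051 to 0.17), with a pseudocount of 0.1 RPM (0.072) and with no filter (0.081). It had 8.24 and 8.81 RPM in GR3039 IPs, against 9.84 and 12.2 RPM in inputs, and 0.508 and 1.66 RPM in GR3035 IPs, against 15.8 and 10.5 RPM in inputs.

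The genes of the members lie among other piRNA genes, as is known for this class. By name, 2871 of the 2875 were matched to RefSeq genes (assembly WBcel235). Another piRNA gene was next to 2855 of them (99.4%), against 9597 of 9990 matched piRNA genes outside the rule (96.1%). Members overlapped a coding gene in 34.9% and another piRNA gene in 41.0%, against 37.9% and 46.5% of the others. Where piRNA genes overlap, the tables may divide reads between near copies.

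Messenger RNAs of the piRNA pathway were read in the csr-1a mutant and N2 at 20 and 25 C, for 25 genes known to act in piRNA transcription, processing, PRG-1 itself or the silencing downstream of it. Reads on the GFP tag numbered 172 to 772 in the 6 mutant libraries and 0 or 1 in the 6 of N2. At 25 C, fkh-5, a forkhead factor tied to piRNA gene transcription, had 1.54, 1.27 and 1.23 CPM (counts per 1000000 of the library) in the mutant, against 0.463, 0.481 and 0.435 CPM in N2. Its change was 1.56 ± 0.44 on the log2 scale (SE, edgeR quasi-likelihood, Benjamini-Hochberg adjusted p = 0.027). parn-1, the exonuclease that trims piRNA 3′ ends, had 10.3, 6.02 and 8.95 CPM in the mutant, against 23.0, 23.6 and 21.9 CPM in N2, and fell by 1.42 ± 0.46 on the log2 scale (SE, edgeR, adjusted p = 0.038). Those are 1 gene higher and 1 lower of 25, where 17.4% of all genes tested were higher and 11.2% lower. Both calls were lost when any 1 library of 25 C was left out. The list median was -0.42 on the log2 scale, against 0.05 for all genes. prg-1 itself had 162, 113 and 102 CPM in the mutant, against 272, 179 and 270 CPM in N2 (log2 change -0.92, edgeR adjusted p = 0.23). prg-2, a close copy of prg-1, was not analysed here, and the division of reads between the pair is uncertain.

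At 20 C, 0 of the 25 genes were higher and 0 lower by edgeR, where 1.95% of all genes were higher and 5.16% lower; 3 of the 25 had an unadjusted p under 0.05, and DESeq2 called 0 in each direction. The list median was 0.56 on the log2 scale, against 0.05 for all genes, and fkh-3 and fkh-4 had no reads in any of the 6 libraries. Replicate 3 stood apart in each group there. prg-1 had 148, 193 and 21.2 CPM in the mutant, against 30.1, 29.1 and 94.3 CPM in N2, so the groups overlapped. csr-1 had 33.2 CPM in mutant replicate 3, against 145 and 223 CPM in the other two, and 247 CPM in N2 replicate 3, against 124 and 143 CPM in the other two. hrde-1, an Argonaute acting downstream of PRG-1, had 138, 174 and 11.4 CPM in the mutant, against 23.3, 32.0 and 94.5 CPM in N2. Without mutant replicate 3, 21 of the 25 genes were higher and 0 lower, where 20.2% of all genes were higher and 18.7% lower. Without N2 replicate 3, 0 were higher and 0 lower. What sets these libraries apart was not tested.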

How the data were processed

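Small RNA tables for 10 strains, 2 IP and 2 input libraries each, hold RPM values that the authors deposited with 0.01 added to every value. Each column sums to 1000000 with its no-feature entry, which held 2.60% to 10.8% of reads and stayed out of tests. RNA was treated with a 5′ polyphosphatase before library making, per the labels' protocols. The mRNA tables hold whole-number counts per gene, deposited by the authors, from 12 poly(A) libraries with totals of 7457340 to 18774300. The submitters' processing notes name cutadapt, STAR, FastQC and DESeq2 with no role, while build, annotation and aligner settings were not given in the sources used.

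The RPM that 1 read is worth gave an estimate of library size. Between 84.5% and 95.0% of piRNA values in a library came within 0.02 of a whole read, so the RPM values were not turned back into counts for the main test. IP minus input was fitted per strain with limma 3.58.1 (trend) on log2(RPM + 1), with Benjamini-Hochberg adjustment over all features with at least 10 estimated reads in 2 libraries. Pairs of strains were fitted as an interaction on 8 libraries. mRNA counts were fitted with edgeR 4.0.16 (quasi-likelihood, TMM, filterByExpr) in 4 groups, with DESeq2 1.42.0 as an alternative, in R 4.3.3. Only some of these fits were tested on simulated data. The outcome is not given here, so no conclusion is drawn from it.

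Inputs carry the replicate number of the IP made from the same lysate, per the labels. The correlation of same-numbered deviations was -0.0153 to 0.406 over strains, and fits with the replicate number as a block are given where they change a count. Alternatives were another pseudocount, no filter, TMM, totals without antisense features, edgeR on estimated reads, and leaving out each library.

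The members, the gene list and the tests were chosen with earlier results of these data known. Named piRNAs are the 8 of highest mean input, the 6 called higher and the 6 called lower in the most strains, the 2 on each side of the limit, and the 2 largest differences called per direction and pair of strains. Names were matched to RefSeq genes of WBcel235, whose coordinates were not used for values. Sequences were not used here, and 3 input samples of a further strain were not analysed here.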

Additional observations from a re-analysis of the deposited data

Results flagged for a closer look

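Differences in IP over input between strains, tested as interactions with limma, were found for 273 members in JMC151 minus JMC164, 21 in JMC223 minus JMC164 and 1 in GR3039 minus GR3035. The largest single differences on the log2 scale were 3.87 for 21ur-5770 and 3.83 for 21ur-4807 in JMC151 minus JMC164, 3.97 for 21ur-8495 and 2.98 for 21ur-3989 in JMC223 minus JMC164, and 2.47 for 21ur-1237 in GR3039 minus GR3035. JMC164 takes part in 2 of the 3 pairs, so those pairs share its libraries. None of the 21 members, and 12 of the 273, were deep enough to be tested in both strains of their pair alone.

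Reads antisense to member piRNA genes, which enter no comparison above, were higher in both IPs than in both inputs of 4 strains and lower in both IPs of 3 others. Their sum was 6.66 and 6.76 RPM in JMC101 IPs, against 3.51 and 3.44 RPM in inputs, a difference of means of 3.24 RPM. It was 6.67 and 6.20 RPM in JMC164 IPs, against 3.78 and 2.13 RPM in inputs (difference 3.48 RPM), and 6.50 and 9.05 RPM in JMC161 IPs, against 4.48 and 4.15 RPM in inputs (difference 3.46 RPM). In JMC223 it was 5.75 and 4.69 RPM in IPs, against 2.78 and 0 RPM in inputs (difference 3.83 RPM), where the sums rest on 23 and 11 reads in IPs and 7 and 0 reads in inputs. Antisense reads of all features were also a larger share of the IPs than of the inputs in these 4 strains, and their part in these sums was not tested. The 3 strains with lower sums were GR3039, GR3035 and JMC248, and their sums rest on few reads. GR3039 had 0.634 and 1.03 RPM in IPs (2 and 2 reads), against 1.97 and 2.81 RPM in inputs (11 and 20 reads). GR3035 had 0.871 and 1.92 RPM in IPs (6 and 37 reads), against 2.497 and 3.15 RPM in inputs (52 and 62 reads). JMC248 had 1.60 and 1.33 RPM in IPs (5 and 3 reads), against 1.91 and 2.995 RPM in inputs (10 and 20 reads). The sum in input 2 of JMC164 rests on 6 reads.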

How the results depend on the processing

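Counts of lower and higher members moved with scaling. With totals that leave out antisense features, which shifted the median of all features by 2.58 in JMC101, 2.72 in JMC223, 1.75 in JMC161 and 1.35 in JMC164 on the log2 scale, lower members were 309 in JMC101, 816 in JMC161, 169 in JMC164, 4 in JMC223, 979 in JMC205 and 6 in JMC151, and higher members 15 in JMC101, 5 in JMC161, 1 in JMC164, 46 in JMC223, 12 in JMC205, 28 in JMC207 and 151 in GR3035. With TMM, lower members were 385 in JMC205 and 94 in JMC223, and higher ones 66 in JMC205, 47 in JMC207, 22 in GR3035, 11 in GR3039 and 0 in JMC151; between strains 95 were higher in JMC223 minus JMC164, and 5 higher and 1 lower in GR3039 minus GR3035. With a pseudocount of 0.1 RPM, lower members were 1054 in JMC205 and 14 in JMC223, and higher ones 66 in JMC205 and 32 in JMC207; between strains 38 were higher in JMC151 minus JMC164, 3 higher and 2 lower in JMC223 minus JMC164, and 0 higher in GR3039 minus GR3035. With no filter, lower members were 0 in JMC151, 300 in JMC223, 243 in GR3035 and 241 in GR3039, and 0 were higher in JMC151; between strains 97 were higher in JMC151 minus JMC164, 2 in JMC223 minus JMC164 and 0 in GR3039 minus GR3035. edgeR on estimated reads gave 1067 lower in JMC205, 53 in JMC223 and 558 in GR3035, and 71 higher in JMC205, 33 in JMC207 and 38 in GR3039. The replicate block gave 54 lower in JMC223, and between strains 531 higher in JMC151 minus JMC164, 13 higher in JMC223 minus JMC164, and 8 higher and 1 lower in GR3039 minus GR3035; the pairing moved no other count of members by over 1.5 times. Other counts of members stayed within 1.5 times, also with members chosen from the other 9 strains. The cause of these shifts was not tested.

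The share of reads, IP minus input, outside antisense features was -0.932 percentage points in JMC101, -0.817 in JMC164, -0.661 in JMC205, -0.730 in JMC207, -0.618 in JMC248 and -0.640 in GR3039, and turned to 0.943 in JMC223. Over all piRNA genes it was -0.405 in JMC205. The same scaling turned the fall of 21ur-66 in JMC101 to 0.69, of 21ur-1404 in JMC101 to 0.41 and in JMC161 to 0.80, of 21ur-1147 in JMC101 to 0.47, of 21ur-4324 in JMC161 to 0.33, of 21ur-5770 in JMC101 to 0.16 and in JMC161 to 0.089, of 21ur-4807 in JMC161 to 0.19 and of 21ur-1237 in JMC101 to 0.17, all on the log2 scale. Of the other named values under alternatives, 1188 of IP over input kept direction and call and 79 lost the call; for differences between strains these were 31 and 27.

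Leaving out 1 library also changed how many members were tested, down to 859 of 1522 in JMC101, 1111 of 2435 in JMC164 and 942 of 1883 in JMC161. It gave lower members of 723 to 1226 in JMC101, 2 to 4 in JMC151, 768 to 1604 in JMC164, 276 to 690 in JMC205, 405 to 923 in JMC207, 40 to 565 in JMC248, 14 to 34 in JMC223, 163 to 523 in GR3035, 776 to 1825 in JMC161 and 33 to 563 in GR3039. Higher members were 0 to 5 in JMC151, 12 to 57 in JMC248, 0 to 7 in JMC223, 31 to 128 in GR3035 and 7 to 69 in GR3039. Between strains the range was 16 to 298 higher in JMC151 minus JMC164, 1 to 565 higher and 0 to 15 lower in JMC223 minus JMC164, and 0 to 25 higher and 0 to 78 lower in GR3039 minus GR3035.

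Pathway mRNA calls at 25 C, 1 in each direction, became 0 and 0 under the replicate block and over the left-out libraries (0 to 0), and the higher one was lost with DESeq2 (0). At 20 C the left-out libraries gave 0 to 21 higher. Same-numbered mRNA libraries correlated at -0.41 to 0.13 in their deviations from the group means. With 3 libraries per group this cannot tell whether they share a culture or a batch. Depth limits single piRNAs most in JMC151 and JMC223, where 52 and 214 members could be tested.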

Other observations

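The pattern of input levels over strains also held single piRNAs that stood apart in 1 strain, found after their values were seen among 853 members deep enough to compare. 21ur-975 had inputs of 73.5 and 52.6 RPM in GR3039, with IPs of 20.3 and 6.17 RPM there, while its other strains averaged 3.87 to 19.6 RPM in inputs. 21ur-3377 had 0 RPM in all 4 libraries of JMC223, while inputs of the other strains averaged 1.10 to 21.4 RPM. 21ur-3451 had 0 and 0.668 RPM in JMC151 inputs and 0 RPM in both IPs, against 7.72 to 62.1 RPM in inputs of the other strains. 21ur-11433 had 23.2 and 14.7 RPM in GR3035 IPs, against 16.9 and 8.81 RPM in inputs, and was also high in inputs of JMC223, at 21.0 and 15.4 RPM, and of JMC161, at 23.9 and 22.8 RPM, where its median over strains was 3.31 RPM. In JMC223 input 2, 1 read is worth 3.07 RPM, which sets the lower limit of what that library can show.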
